A study of Sus scrofa with 12 samples.

Results

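Pyruvate dehydrogenase kinases and pyruvate dehydrogenase phosphatase set how much pyruvate enters the mitochondrial citric acid cycle. The kinases PDK1, PDK2, PDK3 and PDK4 phosphorylate the pyruvate dehydrogenase complex and switch it off, and the phosphatase PDP1 removes the phosphate and switches it back on. PDK4 is the kinase best known for induction in skeletal muscle during fasting, when fatty acids replace glucose as fuel, whereas PDK2 is expressed in most tissues. All pigs of the study were fasted overnight before death. ATAC-seq, which cuts open DNA with a transposase so that reads accumulate where chromatin is accessible, was used to profile the longissimus dorsi, a back muscle, from 3 boars of the Duroc breed and 3 of the Luchuan breed, all 180 days old and housed alike. Duroc is a lean breed and Luchuan a fat Chinese breed. The RNA-seq part of the study was not analysed here.

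The accessible regions of the 5 genes were those whose midpoint lay in the gene body or within 25 kb of it on Sscrofa11.1. They were 128 of the 217213 peak intervals of the deposited table. Overlapping or adjoining intervals called in both breeds were merged and the longest represented the region, which left 82 of 140081 regions, with 17 for PDK4, 7 for PDK1, 15 for PDK2, 28 for PDK3 and 15 for PDP1. The table holds 1 read count per breed and region and names no boar, so each count was taken as a pool of 3 boars, an assumption that was not tested, and no test between breeds was possible. The counts of all regions summed to 20759708 reads in Duroc and 13746052 in Luchuan. Luchuan counts were therefore multiplied by 1.48, the factor that sets the median log2 ratio of the regions common to both breeds to 0. Each log2 ratio below is scaled Luchuan reads over Duroc reads, with 1 added to both for a single region and nothing added to a sum. The interval in parentheses is the 95% Clopper-Pearson interval of the Luchuan share of the reads, moved to this scale. It covers counting error only and holds no spread between boars. The reads carry no molecular identifiers, so they are not independent molecules either. The muscle is a mixture of cells, so a larger share of one cell type and a more open region in each nucleus cannot be told apart. Sequences are not printed, since no genome was used here.

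The identity of the tissue was read from regions within 2 kb of marker genes. All 12 muscle fiber markers had regions, with 500 to 1100 Duroc reads and 362 to 1030 scaled Luchuan reads per kb of region and gene. The median log2 ratio of their 343 regions was -0.16, and all 343 had at least 50 reads. Of them 13, or 3.79%, were at least 2-fold higher in Duroc and 0 in Luchuan. Among all regions with that many reads, 5.40% and 2.40% were. Of the 13, 11 lie in MYH4, the myosin of the fastest fibers, with a summed log2 ratio of -0.78 (-0.84 to -0.71), and 2 in CKM. MYH7, the slow fiber myosin, was at -0.45 (-0.53 to -0.37). Over the 12 fiber markers, summed log2 ratios ran from -0.78 to 0.04. The median was above 0 in TTN alone, at 0.02, and TTN held 186 of the 343 regions. FABP4 and CIDEC of the 6 fat cell markers had no region, and the other 4 markers held 10 regions with 134 to 613 Duroc and 120 to 772 scaled Luchuan reads per kb. The summed log2 ratio of the fat cell markers was 0.29 (0.19 to 0.40), and most of these reads lay in LIPE, the hormone-sensitive lipase gene, which muscle also expresses. ADIPOQ, the adiponectin gene, had 1 region, at -0.15. Summed log2 ratios were 0.04 (-0.12 to 0.19) for 15 endothelial, -0.01 (-0.15 to 0.13) for 11 immune cell, 0.06 (-0.07 to 0.19) for 14 fibroblast and -0.19 (-0.28 to -0.10) for 17 satellite cell regions. By gene, these summed log2 ratios ran from -0.17 to 0.74 in endothelium, from -1.09 to 1.25 in immune cells, from -0.15 to 0.66 in fibroblasts and from -0.21 to 0.50 in satellite cells. Of the other markers, CDH5 (endothelium), MS4A1 (immune cell) and LUM (fibroblast) had no region. The part of a different cell composition in the results below was not tested.

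The 5 genes differed in direction. In summed scaled reads, PDK4 was more accessible in Luchuan and PDK3 less accessible there. PDK1 lay slightly above 0, PDK2 slightly below, and PDP1 was close to equal in both breeds. Without scaling, which shifts every summed log2 ratio by 0.56, the summed log2 ratio of PDK4 was still above 0, at 0.11, and that of PDK1 lay below 0, at -0.43. In unscaled counts, the PDK4 region with the most reads had fewer in Luchuan, 867, than in Duroc, 992. After scaling, all 17 PDK4 regions had a log2 ratio above 0, and the counting interval of 13 lay above 0. Of the 17, 8 were at least 2-fold higher in Luchuan, which is 47.1%, while 7.11% of all 140081 regions passed this threshold. Of the 28 PDK3 regions, 26 lay below 0 and 7 were at least 2-fold higher in Duroc, while 5.70% of all regions were. PDK2 and PDP1 had no region at 2-fold or more in either direction. PDK1 had 1 such region, with 12 Luchuan and 8 Duroc reads, and PDK3 had 1 region higher in Luchuan, with 11 and 6 reads. Both were weak and their counting intervals included 0.

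**Figure D1:**
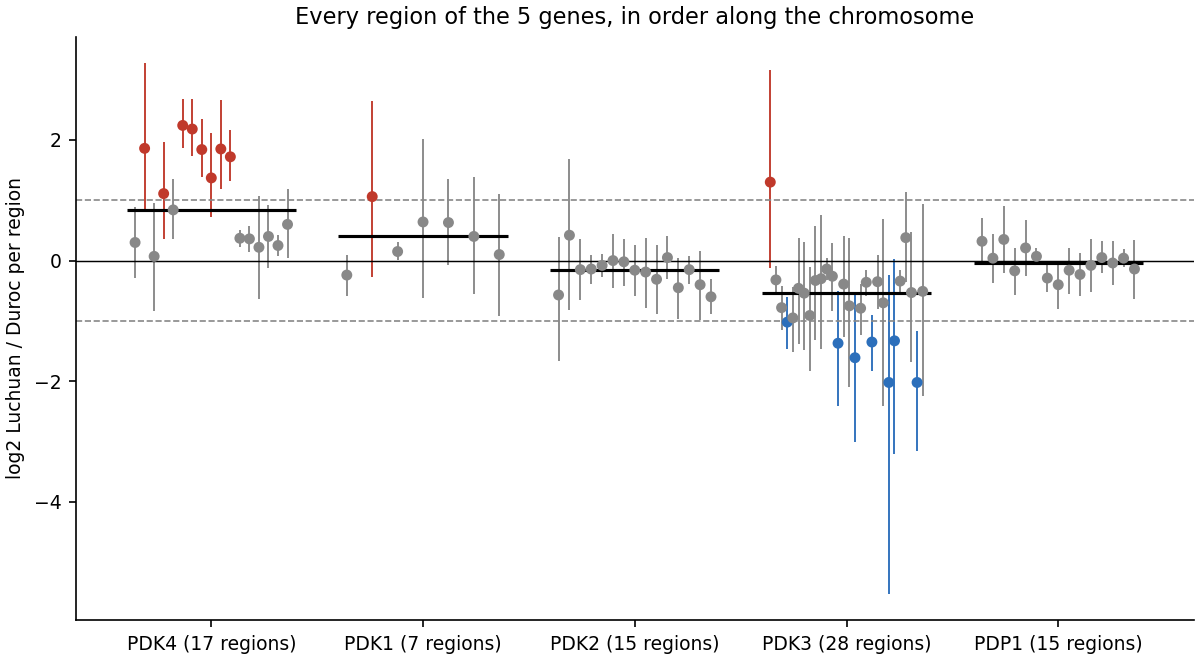
The log2 ratio of Luchuan to Duroc reads is plotted for each of the 82 regions, grouped by gene and ordered along the chromosome within a gene, with bars for the 95% counting interval and a black line for the gene's median. Red points are at least 2-fold higher in Luchuan, blue points at least 2-fold higher in Duroc, dashed lines mark 2-fold, and the 17 points of PDK4 all lie above 0 while 26 of the 28 points of PDK3 lie below it.

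PDK4 (gene 100286778) lies on chromosome 9 from 75246956 to 75260134. The annotation gives no strand, exons or untranslated regions, so its ends are named by their coordinate. The whole PDK4 window lies within the annotated body of ASB4, which encodes an ankyrin repeat and SOCS box protein and reaches from 75110367 to 75337619, so each region here could also belong to ASB4.

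Of the 8 PDK4 regions at 2-fold or more, 6 formed 1 uninterrupted block of 8343 bases, from 75245100 to 75253442, which holds the lower-coordinate end of the gene and reaches into its body. The block was picked for these differences, so its values are a description. The first, from 75245100 to 75245574 and outside the gene, had 224 Luchuan and 69 Duroc reads, a log2 ratio of 2.24 (1.86 to 2.67) or 4.74-fold. The second, from 75246269 to 75246668, lies 0.488 kb from the gene end and had 162 Luchuan and 52 Duroc reads, a log2 ratio of 2.18 (1.74 to 2.68). Both were called as peaks in Luchuan alone.

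The other 4 regions of the block lie inside the gene. From 75249418 to 75249744 there were 130 Luchuan and 53 Duroc reads, a log2 ratio of 1.84 (1.38 to 2.34). From 75250870 to 75251029 there were 52 and 29 reads, the smallest difference of the block, 1.37 (0.72 to 2.11). These 2 regions were called as peaks in both breeds, and the 2 that follow in Luchuan alone. From 75252817 to 75252981 there were 58 Luchuan and 23 Duroc reads, a log2 ratio of 1.85 (1.18 to 2.66). From 75253008 to 75253442 there were 158 and 70 reads, a log2 ratio of 1.72 (1.32 to 2.16).

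Within the block the level in Duroc was low and even, from 130 to 181 reads per kb of region, and the scaled level in Luchuan was 480 to 696. Summed over the block there were 784 Luchuan and 296 Duroc reads, a log2 ratio of 1.97 or 3.91-fold, a size that the choice of its regions helps to set. Being Luchuan-specific, as 4 of the 6 were, is also set by the reads, and 34.3% of all Luchuan-specific regions were at least 2-fold higher in Luchuan, with a median log2 ratio of 0.75, against 1.0% of common regions. Among the 102248 regions with at least 50 reads in both breeds together, 2.40% were 2-fold or more higher in Luchuan, and 7 of the 15 PDK4 regions with that many reads were. Of the same 102248 regions, 0.158% had a log2 ratio as high as the first region of the block and 0.981% as high as its weakest.

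Runs of neighbouring regions that were all at least 2-fold higher in Luchuan occurred elsewhere too. There were 220 runs of 4 or more regions, 88 of 5 or more and 53 of 6 or more, the last being the length of the block itself. In 8, 3 and 1 of these, every region had at least 50 reads, and the block at PDK4, whose weakest region had 81, is the 1 of that length. In the opposite direction there were 109, 49 and 33 such runs, of which 40, 12 and 7 had at least 50 reads in every region.

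The strongest region of the PDK4 window behaved differently from the block. It spans the higher-coordinate end, from 75259678 to 75260712, and counted 867 reads in Luchuan against 992 in Duroc. Its log2 ratio was 0.37 (0.23 to 0.50), and its level was 1240 scaled Luchuan and 958 Duroc reads per kb. Beyond it, 75262721 to 75263393 counted 356 reads in Luchuan against 410 in Duroc, a log2 ratio of 0.36 (0.15 to 0.57). The region from 75272670 to 75273470 had 504 and 625 reads and a log2 ratio of 0.25 (0.08 to 0.42). The 6 regions from this end onward lay between 0.22 and 0.60, none of them at 2-fold, and summed to 0.34 (0.25 to 0.43). Over these 6 regions the breeds differed by 1.26-fold.

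On the other side of the block, between 8 and 25 kb beyond the lower coordinate, lie 5 weak regions. Those from 75223686 to 75223840 and from 75238250 to 75238399 were at least 2-fold higher in Luchuan, with 24 against 9 and 36 against 24 reads, and log2 ratios of 1.86 (0.82 to 3.27) and 1.11 (0.36 to 1.96). The second of these had been called as a peak in Duroc alone. Next to it, 75238440 to 75238776 counted 77 reads in Luchuan against 63 in Duroc, a log2 ratio of 0.84 (0.35 to 1.35). For the remaining 2, at 0.30 and 0.07, the counting interval included 0. Over all regions of the window outside the block, the summed log2 ratio was 0.37 (0.29 to 0.46).

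**Figure D2:**
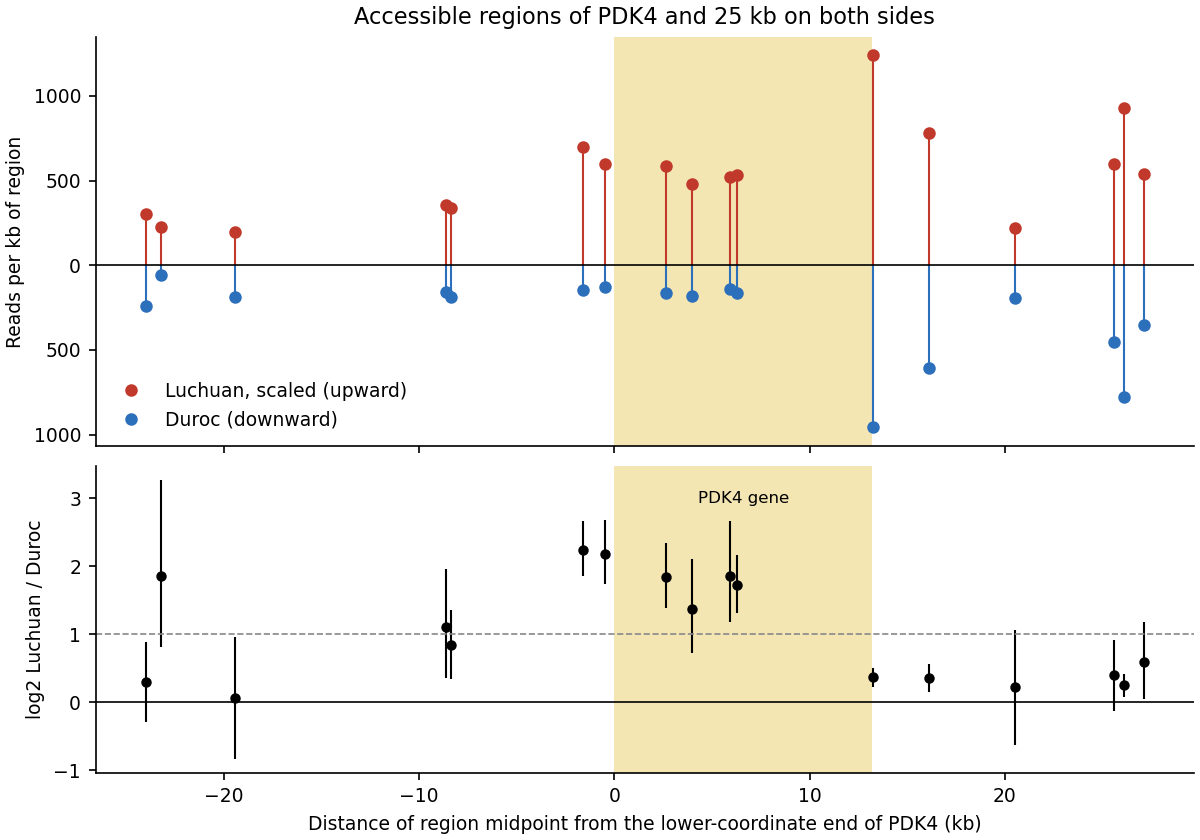
The upper panel shows reads per kb of region for the 17 PDK4 regions against their distance in kb from the lower-coordinate end of the gene, with scaled Luchuan values upward in red and Duroc values downward in blue, and the lower panel shows the log2 ratio with its 95% counting interval. The shaded band is the gene; the 6 regions around its lower-coordinate end have 480 to 696 scaled Luchuan reads per kb and 130 to 181 Duroc reads per kb, and the tall region at the other end differs by a log2 ratio of 0.37.

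The smaller difference outside the block extended beyond PDK4. Between 25 and 100 kb beyond the lower coordinate, 15 of 16 regions lay above 0 with a median of 0.67, and between 25 and 100 kb beyond the higher coordinate, 15 of 18 did, with a median of 0.52, and 2 of the 18 were at least 2-fold higher in Duroc. Between 100 and 250 kb the medians were -0.05 over 24 regions and -0.14 over 13 regions. In the body of ASB4 outside the PDK4 window, 34 of 37 regions lay above 0, with a median of 0.55 and a summed log2 ratio of 0.47 (0.41 to 0.54), and 2 were at 2-fold or more. With PDK4 centred on the median of these ASB4 regions, an alternative chosen after seeing the data, the median of its 17 regions was 0.30 in place of 0.84, the summed log2 ratio was 0.12, and 6 regions were still at least 2-fold higher in Luchuan.

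**Figure D3:**
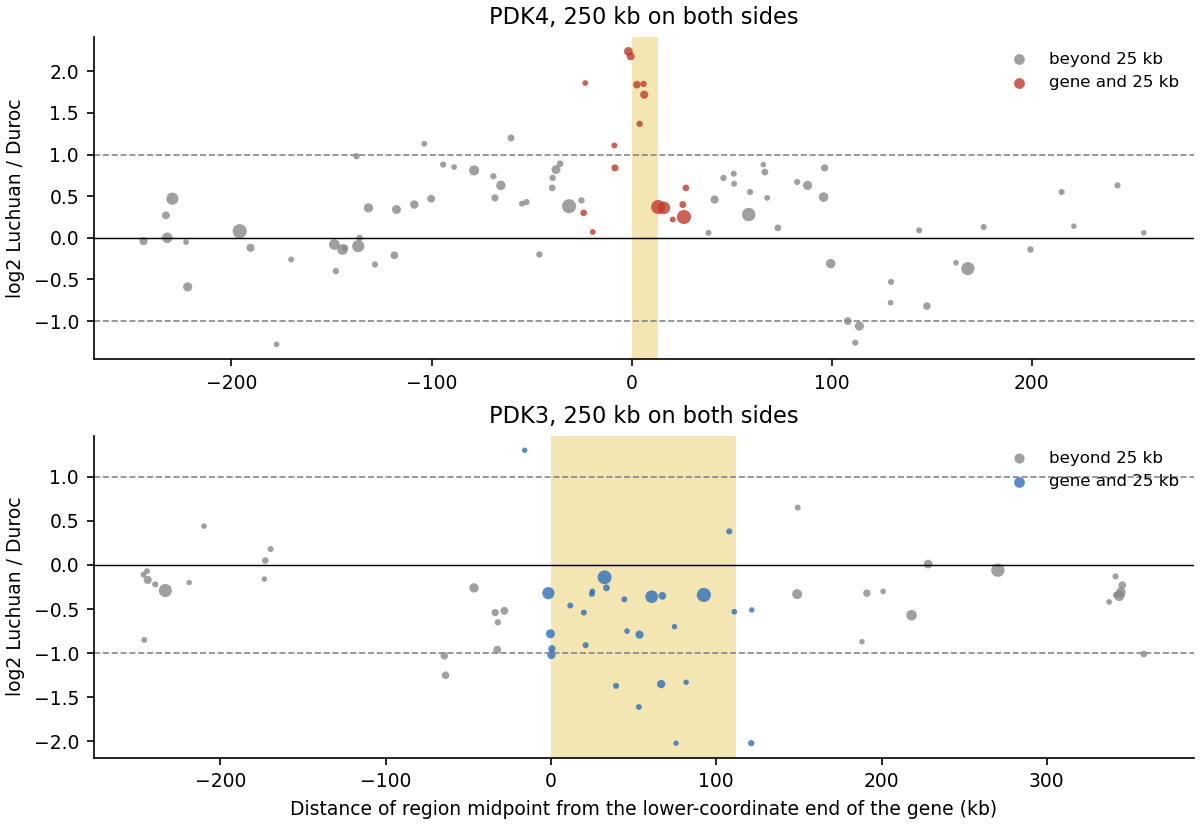
The log2 ratio of Luchuan to Duroc is plotted for every region within 250 kb of PDK4 (upper panel, 17 coloured regions) and PDK3 (lower panel, 28 coloured regions) against the distance in kb from the lower-coordinate end of the gene, with larger points for more reads and a shaded band for the gene. Regions between 25 and 100 kb from PDK4 have medians of 0.67 and 0.52, below the block at the gene, and the regions around PDK3 lie mostly below 0.

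PDK1 (gene 100286871), a kinase best known for its induction by hypoxia, lies on chromosome 15 from 78608394 to 78650958. It had the fewest regions, and 1 of them held most of the reads. This region, from 78608084 to 78609193 across the lower-coordinate end of the gene, counted 681 reads in Luchuan against 904 in Duroc, a log2 ratio of 0.15 (0.01 to 0.30). The next, from 78588703 to 78589195 and inside the neighbouring gene ITGA6, had 115 and 200 reads and a log2 ratio of -0.24 (-0.58 to 0.10). The other 5 regions had 8 to 34 Duroc reads and log2 ratios of 0.10 to 1.06, and the counting interval of each included 0. The median of the 7 regions, 0.40, therefore rests on weak regions, and the summed log2 ratio was 0.13 (0.00 to 0.26). The flanks of PDK1 from 25 to 250 kb had similar values, with a median of 0.47 over 26 regions and a summed log2 ratio of 0.17 (0.07 to 0.26). In these flanks 5 regions, or 19.2%, were at least 2-fold higher in Luchuan, beside 7.11% of all regions, and all 5 had under 50 reads.

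PDK2 (gene 100516037) lies on chromosome 12 from 26274562 to 26295787, and 11 of its 15 regions were common to both breeds. Its strongest region, from 26274125 to 26274738 across the lower-coordinate end, counted 351 reads in Luchuan against 549 in Duroc, a log2 ratio of -0.08 (-0.28 to 0.11). The 6 regions inside the gene lay between -0.31 and 0.05, and the counting interval of each included 0. The 1 region whose interval left out 0 lies at 26318882 to 26319464, at the end of the neighbouring gene PPP1R9B, with 146 and 326 reads and a log2 ratio of -0.60 (-0.89 to -0.31). Over the window 13 of 15 regions lay below 0, the median was -0.15 and the summed log2 ratio was -0.18 (-0.27 to -0.09). Of these regions, 3 lie in ITGA3 and 3 in SAMD14 rather than in PDK2. The flanks of PDK2 from 25 to 250 kb had a similar median, -0.23 over 33 regions.

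PDK3 (gene 100153858) lies on the X chromosome from 20486205 to 20598492 and is the longest of the 5 genes. The differences at PDK3 were spread over the gene. At its lower-coordinate end, 3 regions within 1 kb had 90 and 228, 61 and 183, and 40 and 115 reads in Luchuan and Duroc, with log2 ratios of -0.78 (-1.15 to -0.42), -1.02 (-1.47 to -0.60) and -0.95 (-1.52 to -0.43). Together they were 1.87-fold lower in Luchuan, a summed log2 ratio of -0.90 (-1.15 to -0.66). Deeper in the gene, 20552573 to 20553234 counted 51 reads in Luchuan against 193 in Duroc, a log2 ratio of -1.35 (-1.83 to -0.91). Beyond the higher coordinate and inside PCYT1B, the region from 20607209 to 20607541 had 11 and 69 reads and a log2 ratio of -2.02 (-3.16 to -1.16). The remaining 4 regions at 2-fold or more lie inside the gene and were weak. They had 13 and 51, 8 and 38, 2 and 15, and 5 and 20 reads in Luchuan and Duroc, with log2 ratios of -1.37 (-2.41 to -0.51), -1.61 (-3.00 to -0.56), -2.02 (-5.52 to -0.24) and -1.33 (-3.21 to 0.02), the last of which included 0.

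The strongest regions of PDK3 differed less. The region with the most Duroc reads, from 20578148 to 20579336, counted 346 reads in Luchuan against 646 in Duroc, a log2 ratio of -0.34 (-0.53 to -0.15). From 20518212 to 20519135 there were 365 and 594 reads, and the log2 ratio of -0.14 had an interval that included 0 (-0.33 to 0.05). Common regions of PDK3 had a summed log2 ratio of -0.38 (-0.47 to -0.29) and its 15 Duroc-specific regions -1.08 (-1.30 to -0.87), of which 6 were at 2-fold or more. Being Duroc-specific is itself set by the reads, so this split is a description.

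The X chromosome as a whole had lower Luchuan values, with a median log2 ratio of -0.24 over 3323 regions, and 14.2% of them were at least 2-fold higher in Duroc. PDK3 lay below the rest of X, with a summed log2 ratio of -0.48 (-0.56 to -0.40), which is -0.27 relative to the other regions of X (exact interval of the odds ratio for counting error, -0.35 to -0.19). Of its 18 regions with at least 50 reads, 4 were at least 2-fold higher in Duroc, while 12.6% of X regions and 5.40% of all regions with that many reads were. With PDK3 centred on the median of X, an alternative chosen after seeing the data, its summed log2 ratio was -0.24 and 6 regions were at 2-fold or more. The neighbourhood of PDK3 shared the direction. In its flanks from 25 to 250 kb, 28 of 33 regions lay below 0, with a summed log2 ratio of -0.34 (-0.41 to -0.27). Between 25 and 100 kb beyond the lower coordinate, 0 of 7 regions lay above 0, with a median of -0.65. At the same distance beyond the higher coordinate, the median of 5 regions was -0.32.

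PDP1 (gene 100153002), the phosphatase that opposes the kinases, lies on chromosome 4 from 42769232 to 42777936. It was the most accessible of the 5 windows in Duroc, with 676 reads per kb of region, and with 669 scaled reads per kb it came after PDK4, at 708, in Luchuan. Its strongest region, from 42777479 to 42778492 across the higher-coordinate end, counted 775 reads in Luchuan against 1086 in Duroc, a log2 ratio of 0.07 (-0.06 to 0.21). From 42795148 to 42796136 there were 589 and 843 reads and a log2 ratio of 0.04 (-0.11 to 0.20). All 15 regions lay between -0.40 and 0.35, and the intervals of 2 of them, both just beyond the higher coordinate, left out 0. Their log2 ratios were -0.29 (-0.52 to -0.06) from 42778517 to 42779012 and -0.40 (-0.81 to -0.01) from 42779892 to 42780108. The summed log2 ratio of PDP1 was -0.01 (-0.08 to 0.06).

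The comparison of PDK4 with the other genes does not depend on the scaling factor, because the factor cancels between 2 genes of the same libraries. The summed log2 ratio of PDK4 was 0.67 (0.59 to 0.74), from 2854 Luchuan and 2653 Duroc reads. It exceeded that of PDK1 by 0.53 (0.39 to 0.68), that of PDK2 by 0.85 (0.73 to 0.97), that of PDK3 by 1.14 (1.03 to 1.26) and that of PDP1 by 0.68 (0.58 to 0.79), with exact intervals of the odds ratio for counting error. In order from the highest, the summed log2 ratios were those of PDK4, PDK1, PDP1, PDK2 and PDK3. The intervals of the neighbours PDK1 and PDP1 overlapped, and that of PDP1 began at -0.08, just above the upper end of that of PDK2 at -0.09. Between the regions with the most Duroc reads in each gene the differences were smaller, and PDK4 exceeded PDK1 by 0.21 (0.02 to 0.41), PDP1 by 0.29 (0.10 to 0.48), PDK2 by 0.45 (0.21 to 0.69) and PDK3 by 0.71 (0.47 to 0.94). None of these intervals holds the spread between boars. Without the 6 regions of the block, the rest of the PDK4 window still lay 0.39 (0.28 to 0.50) above PDP1.

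**Figure D4:**
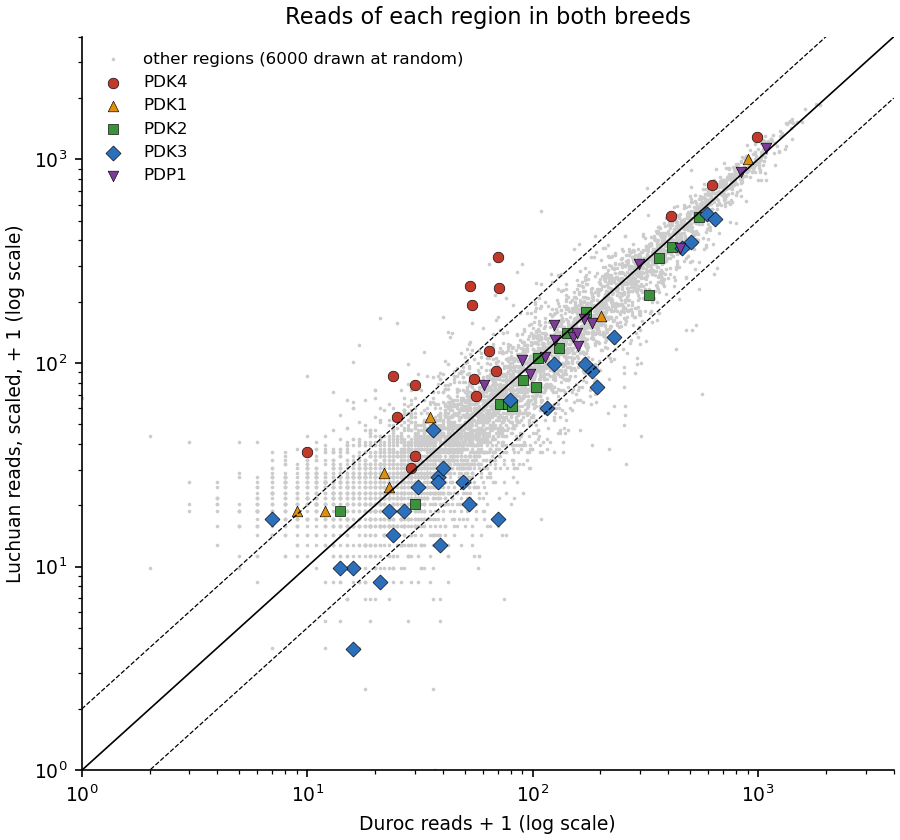
Scaled Luchuan reads are plotted against Duroc reads, both with 1 added and on log axes, for the 82 regions of the 5 genes (coloured symbols) and 6000 other regions drawn at random (grey); the solid line marks equal reads and the dashed lines 2-fold. The PDK4 block lies above the upper dashed line at 23 to 70 Duroc reads, and the strongest region of each gene lies between the dashed lines.

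Among 13055 protein-coding genes with at least 5 regions in the body and 25 kb on both sides, PDK4 ranked 127 by the median log2 ratio, within the highest 0.973%. With 2 kb on both sides it ranked 3 of 6013 genes, with a median of 1.84 over 7 regions. Of these 7, 6 are the block, which was picked for its differences, so this rank is a description. The other kinases lay elsewhere in the 25 kb ranking. At least as high a median as that of PDK1 was found in 5.26% of genes, at least as low a median as that of PDK3 in 3.39%, and PDK2 and PDP1 had 68.3% and 46.4% of genes at or above them. The genes whose median was nearest to that of PDK4 were PCDH15, NTRK2 and AASS just above it and MICAL2, CDH22 and LOC106508146 just below, with medians of 0.84 to 0.85 over 5 to 39 regions. MICAL2, which encodes an actin-oxidising enzyme, had 16 of 39 regions at 2-fold or more, and its summed log2 ratio of 0.68 was close to the 0.67 of PDK4. That of AASS was 0.28. This likeness is of 1 value per gene over 2 pooled libraries.

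The remaining genes of pyruvate oxidation showed small differences. The other subunits and regulators of the pyruvate dehydrogenase complex, PDHA1, PDHB, PDHX, DLAT, DLD, PDP2, PDPR and BCKDK, held 89 regions with a median log2 ratio of -0.08, close to the -0.02 of all regions. Of these 89 regions, 2 were at least 2-fold higher in Luchuan and 2 in Duroc, or 2.25% each, below the 7.11% and 5.70% of all regions. The 2 higher in Luchuan lie at DLD and PDPR, with log2 ratios of 1.06 (0.10 to 2.17) and 1.70 (0.76 to 2.89). The 2 higher in Duroc lie at PDPR and BCKDK. Of 67 regions with at least 50 reads, 0 were at least 2-fold higher in Luchuan and 2 in Duroc. Among all regions with that many reads, 2.40% and 5.40% were. The summed log2 ratios of the 8 genes ran from -0.10 for PDP2, the second phosphatase, to 0.19 for PDHB, a subunit of the dehydrogenase component. Near PDPR, which encodes the regulatory subunit of the phosphatase, 1 region counted 13 reads in Luchuan against 101 in Duroc, a log2 ratio of -2.34 (-3.35 to -1.56), while the gene as a whole was at -0.05 (-0.15 to 0.05). Near BCKDK, a related kinase of branched-chain ketoacid dehydrogenase, 1 region was at -1.01 (-1.68 to -0.40).

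Genes for the entry of pyruvate and its other fates held 127 regions with a median of -0.11, of which 3, or 2.36%, were at least 2-fold higher in Luchuan and 10, or 7.87%, in Duroc, where all regions had 7.11% and 5.70%. The share higher in Duroc was thus near that of all regions. With at least 50 reads, 0 of 103 regions were at least 2-fold higher in Luchuan and 7 in Duroc. Among all regions with that many reads, 2.40% and 5.40% were. Of the 10, 5 lie at LDHA, the lactate dehydrogenase of fast muscle, with a summed log2 ratio of -0.32 (-0.39 to -0.25), and 2 at PC, pyruvate carboxylase, with -0.52 (-0.64 to -0.41). An LDHA region counted 93 reads in Luchuan against 357 in Duroc, a log2 ratio of -1.37 (-1.72 to -1.05). LDHB, the lactate dehydrogenase of heart and slow muscle, was at -0.40 (-0.54 to -0.25), with 1 region at 2-fold or more, and ME1, malic enzyme, had 2 regions higher in Duroc. The pyruvate carrier genes MPC1 and MPC2 were at -0.02 (-0.12 to 0.07) and 0.13 (0.05 to 0.21), with 2 regions and 1 region higher in Luchuan, all under 50 reads.

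Genes that muscle is known to raise in fasting or through PPAR receptors showed small differences. Of the 13 genes 12 had regions and ACOT1 did not match. They held 138 regions with a median of 0.02, of which 4, or 2.90%, were at least 2-fold higher in Luchuan and 3, or 2.17%, in Duroc, below the 7.11% and 5.70% of all regions. These regions were deeper than most, and 129 had at least 50 reads. Of the 129, 2 were at least 2-fold higher in Luchuan and 3 in Duroc. Among all regions with that many reads, 2.40% and 5.40% were. ANGPTL4, a lipase inhibitor, was at -0.01 (-0.09 to 0.07), CPT1B, the muscle carnitine palmitoyltransferase, at 0.09 (-0.03 to 0.21) and UCP3, an uncoupling protein, at 0.02 (-0.04 to 0.08). UCP3 had 1 region at 2-fold or more in each direction, with log2 ratios of 1.53 (0.94 to 2.21) and -2.24 (-2.86 to -1.72). CPT1A and HADHA had 1 region each higher in Duroc, at -1.41 (-2.05 to -0.85) and -1.47 (-1.83 to -1.13). CPT1A also had 1 region and SLC25A20 had 2 higher in Luchuan.

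Genes of transcription factors and coactivators described as acting on PDK4 held 376 regions, of which 42, or 11.2%, were at least 2-fold higher in Luchuan and 5, or 1.33%, in Duroc, with a median of 0.19. All regions had 7.11% and 5.70%. Of 307 regions with at least 50 reads, 25 were at least 2-fold higher in Luchuan and 3 in Duroc, beside 2.40% and 5.40% of all regions with that many reads. The 42 regions lie at 6 of the 13 genes, and 5 genes had no region at 2-fold or more. ESRRG, an oestrogen-related receptor of oxidative muscle, gave 21 of the 42. Over its 73 regions the median was 0.72 and the summed log2 ratio 0.68 (0.62 to 0.73). PPARGC1A, the coactivator PGC-1alpha, had 10 of 64 regions and a summed log2 ratio of 0.29 (0.25 to 0.34), and FOXO1, a forkhead factor active in fasting, had 5 of 38 and 0.32 (0.26 to 0.37). The strongest PPARGC1A difference was a region with 96 Luchuan and 27 Duroc reads, at 2.35 (1.76 to 3.06). RXRA had 4 regions higher in Luchuan, KLF15 and ESRRB 1 each. PPARD had 2 regions and ESRRB, ESRRG and CEBPB 1 each higher in Duroc. The median was above 0 in 10 of the 13 genes. The lowest summed log2 ratio was that of PPARD, -0.16 (-0.23 to -0.09). CEBPB was at -0.06 (-0.13 to 0.01), ESRRA at -0.04 (-0.12 to 0.05) and FOXO3 at 0.06 (0.02 to 0.11). NR3C1, the glucocorticoid receptor gene, was at -0.02 (-0.07 to 0.03) over 45 regions, and PPARA at 0.09 (0.00 to 0.19). These values describe the genes of the factors, and whether the factors bind at PDK4 was not measured. Without scaling, the 4 lists together had 11 regions at least 2-fold higher in Luchuan and 89 in Duroc, in place of 51 and 20.

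**Figure D5:**
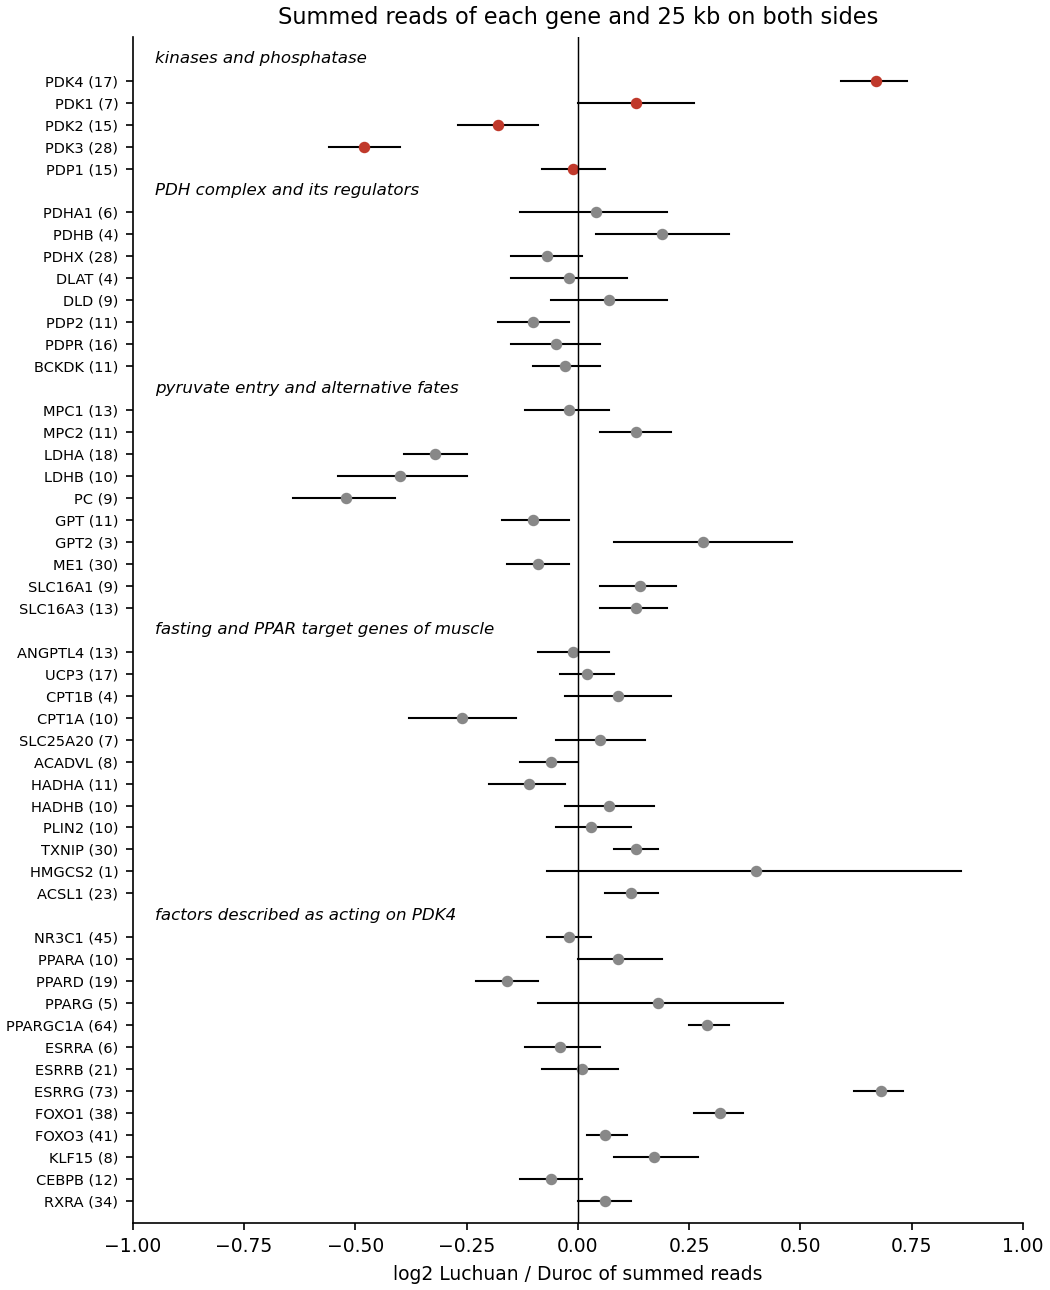
The log2 ratio of summed Luchuan to Duroc reads is plotted for the 5 genes (red) and the genes of 4 related lists (grey), each with its number of regions in parentheses and a bar for the 95% counting interval. PDK4 at 0.67 and ESRRG at 0.68 lie farthest to the right, PC at -0.52 and PDK3 at -0.48 farthest to the left, and most genes of the pyruvate dehydrogenase complex lie close to 0.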

How the data were processed

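ATAC-seq reads had been trimmed by the authors in Trimmomatic 0.36 and mapped in Bowtie2 against the Sscrofa11.1 build, after which MACS2 was used to call peaks, per the labels and the study's methods. Removal of duplicates, a transposase shift and pooling are not described, and duplicates or unshifted reads could alter the count of a region. The values used are deposited counts, whole reads in each peak interval with 1 unscaled column for each breed. The deposited table also holds the authors' log2 fold change and average log2 signal after rescaling and a P-value for each interval, which were not used.

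Positions are given counted from 1, with the start of an interval shifted by 1 base so that the shortest spans 150 bases. Merging, scaling (a factor of 1.48, or 0.56 on the log2 scale) and intervals are described with the results. With 1 pooled count per breed, tests for replicated counts were not used, and called regions are those at 2-fold or more. Gene positions of 19550 protein-coding genes came from RefSeq for Sscrofa11.1, and all 5 genes matched by symbol. RefSeq places LDHB at 2 positions, and the longer was used, a choice made after its values were seen. The 5 genes and all lists were chosen with earlier results of these data known. The genes named are the 5 genes, genes of the lists with a region at 2-fold or more, or with a value that answers for the list, and the 3 genes ranked next to PDK4 on each side. The rule was tested on simulated data for all 140081 regions, and 200 of 200 regions changed 4-fold were recovered. A 4-fold change lies well above the 2-fold threshold, so this cannot show how reliable calls near 2-fold are. The share of false calls is not given. Motif searches were not run here for lack of sequence. Calculations ran in Python 3.11.15 with pandas 2.3.3 and NumPy 2.4.6, intervals in SciPy 1.17.1 and plots in Matplotlib 3.10.9.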

Additional observations from a re-analysis of the deposited data

How the results depend on the processing

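No paired analysis was possible because the counts are given per breed and not per boar, and for the same reason no boar could be left out in turn. Where computed, the median and summed log2 ratios of PDK4 (higher in Luchuan) and of PDK3 (higher in Duroc) kept their direction under every alternative tried. In contrast, the summed log2 ratio of PDK1 was below 0 without scaling. That of PDP1 was above 0 in the gene body alone and, at 0.02, with scaling by the total reads of all regions. The number of PDK4 regions at 2-fold or more ran from 4 to 10. The lowest number, 4, is that of the gene body alone, which holds 4 regions.

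Without scaling, the summed log2 ratio was 0.11 for PDK4, -0.43 for PDK1, -0.74 for PDK2, -1.04 for PDK3 and -0.58 for PDP1, the medians were 0.29 for PDK4, -0.71 for PDK2 and -0.59 for PDP1, 6 PDK4 regions and 17 PDK3 regions were at 2-fold or more, and PDK1, PDK2 and PDP1 together had 3 such regions in place of 1. The 4 lists together then had 11 regions at 2-fold or more higher in Luchuan and 89 in Duroc, in place of 51 and 20, and a median of -0.49 in place of 0.06. The signal-dependent centring left PDK1, PDK2 and PDP1 with 0 regions at 2-fold or more, as did 5 reads added to each count, a threshold of 3-fold, 2-fold with a counting interval that leaves out 0, at least 50 reads, and windows of 0, 2 and 10 kb.

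The summed log2 ratio of PDK4 was 1.75 in the gene body alone, 0.92 with 2 kb, 0.80 with 10 kb and 0.57 with 50 kb on both sides, and its median was 1.78, 1.84 and 1.37 in the first 3 of these windows. In the body alone PDK2 was at -0.07 and PDP1, whose only region there had 70 Luchuan and 89 Duroc reads, at 0.21. The body alone leaves out the strongest regions of PDK4, PDK2 and PDP1, whose midpoints lie 0.061, 0.131 and 0.049 kb outside the gene. The 4 PDK4 regions that it keeps all belong to the block, which was picked for its differences. PDK4 exceeded PDK1 by 1.56, PDK2 by 1.82, PDK3 by 2.21 and PDP1 by 1.53 in the body alone, and by 0.73, 1.04, 1.39 and 0.93 with 2 kb. With 10 kb it exceeded PDK3 by 1.29 and PDP1 by 0.86, and with 50 kb it exceeded PDK1 by 0.37. With 50 kb, PDK1, PDK2 and PDP1 had 4 regions at 2-fold or more. The regions of the lists higher in Duroc were 4, 5, 12 and 38 with windows of 0, 2, 10 and 50 kb.

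Counting every interval gave PDK4 a summed log2 ratio of 0.56, which exceeded PDK2 by 0.70, PDK3 by 0.98 and PDP1 by 0.56. With at least 50 reads, 4 PDK3 regions were at 2-fold or more, and the lists had 27 regions higher in Luchuan. At 1.5-fold PDK3 had 13 regions and PDK1, PDK2 and PDP1 had 4, and at 3-fold PDK3 had 3. The centring of PDK3 on X gave a summed log2 ratio of -0.24, and that of PDK4 on ASB4 gave 0.12 with a median of 0.30. The causes of these shifts were not tested. In the weakest regions a 2-fold difference could lie within counting error. For the PDK1 region with 8 Duroc reads, the log2 ratio of 1.06 had an interval that included 0 (-0.27 to 2.64). The smallest difference detectable at this depth was not computed.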
